A study of Danio rerio with 8 samples.

Results

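Ribosome footprints of ddx3xb mutant zebrafish embryos that had received an N-terminally deleted ddx3xb construct were set against those of mutant embryos with no construct. The comparison used 4 of the 8 samples of the study, 2 in each group. KO_dN denotes embryos of genotype Ddx3xb-/Ddx3xb- given the construct labelled ddx3xb△N, and KO denotes Ddx3xb-/Ddx3xb- embryos whose labels name no injection. Of the other samples, 2 came from Ddx3xb-/Ddx3xb- embryos given the construct labelled ddx3xbFL (KO_FL) and 2 from wild type embryos (WT), and their values are given beside those of KO_dN and KO. All embryos were taken whole at 4 hours post fertilization, the blastula stage, when the zygotic genome is being activated while maternal transcripts are cleared. The sources used here do not give the position of the mutation, the extent of the deletion in the construct, its form or its dose. No group used here is labelled as mutant embryos with a control injection, so the injection and the construct cannot be told apart. The sample titles of KO_dN and KO_FL are written in a different form from those of KO and WT. If these sets were handled apart, that difference could not be told apart from the injection either.

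DDX3 proteins are DEAD-box RNA helicases, enzymes that use ATP to open RNA structure. They are known to act in translation initiation, where they help the small ribosomal subunit to pass structured leader sequences, and also in other steps of the life of an mRNA. Zebrafish carry a pair of genes of this family, ddx3xb and its paralogue ddx3xa. In ribosome profiling, RNA that ribosomes shield from a nuclease is sequenced, so a gene's footprint level depends both on the amount of its mRNA and on how heavily ribosomes load it. The files used here hold no matched RNA values, and these 2 contributions cannot be told apart. In whole embryos, fewer cells of a type and less RNA per cell cannot be told apart either.

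The deposited unit was FPKM, the number of fragments on a gene divided by the length of its transcript and by the mapped fragments of the library. For each gene and group there was 1 such value, the authors' mean over 2 samples. No replicate error and no test could therefore be had for any gene, and every difference below describes 4 libraries. FPKM summed to 190693 in KO_dN and 364061 in KO over the 33633 identifiers used, and 3458 identifiers reached 1 FPKM in KO_dN against 4912 in KO. The most abundant named RNA, 5.8S ribosomal RNA, held 27.1% of the summed FPKM in KO_dN and 45.5% in KO, and all named short RNAs together held 38.2% in KO_dN and 54.2% in KO. Values were therefore brought to a common scale with factors of 0.447 for KO_dN, 0.902 for KO_FL, 0.73 for KO and 3.399 for WT, computed from the 3177 genes that reached 1 FPKM in every group. A scaled level below is the deposited FPKM divided by its group's factor, and a log2 ratio is that of KO_dN over KO with 1 added to each scaled level. Without scaling, the median log2 ratio over 4318 genes was -0.54, so most genes were lower in KO_dN as deposited, and the ratios below are relative to that shift.

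ddx3xb (ENSDARG00000005774) had the highest ratio of any named gene outside the short RNA classes. It stood at 126 FPKM in KO_dN, 76.7 FPKM in KO_FL, 14.7 FPKM in KO and 129 FPKM in WT. The scaled levels were 283 in KO_dN, 85 in KO_FL, 20.1 in KO and 37.9 in WT, so that KO_dN stood above every other group on that scale, with a log2 ratio of 3.75 over KO. Footprints on the construct and on the embryo's own gene cannot be told apart in a gene total, and since the position of the mutation is not given, the 14.7 FPKM of KO do not check its label.

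Its paralogue ddx3xa (ENSDARG00000020573), which encodes a second DDX3 helicase, differed in the other direction. It stood at 3.18 FPKM in KO_dN, 11.4 FPKM in KO_FL, 11.1 FPKM in KO and 28.1 FPKM in WT. KO_dN was the lowest of the 4 groups both as deposited and when scaled, at 7.13 in KO_dN, 12.7 in KO_FL, 15.2 in KO and 8.27 in WT. The log2 ratio was -1.0, and it lay between -1.53 and -0.74 over the main setting and 12 others. The sources used here do not say how reads that match both paralogues were assigned.

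**Figure D1:**
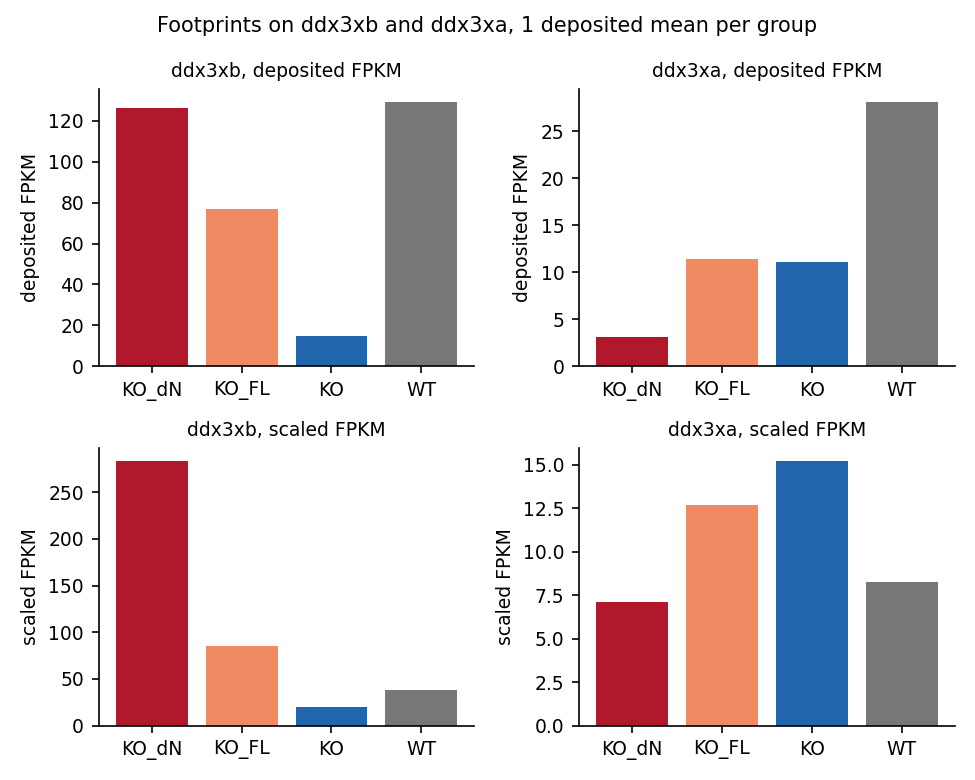
Footprint level (vertical axes, FPKM) of ddx3xb (left) and ddx3xa (right) in KO_dN, KO_FL, KO and WT, as deposited (top) and scaled (bottom), with 1 bar for each group's deposited mean and no error. The scaled ddx3xb level was 283 in KO_dN and 20.1 in KO, and the scaled ddx3xa level was 7.13 in KO_dN and 15.2 in KO.

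Most other genes lay close together in KO_dN and KO. Of 33633 identifiers, 5983 had a mean scaled level of 1 or more over KO_dN and KO and are called measured below. A gene that was high in a single group could pass this filter through that group alone. Low members of the gene lists below could do so too, and this is not marked for each of them. Of these, 201 (3.36%) stood 2-fold or more above KO in KO_dN and 136 (2.27%) stood 2-fold or more below it, with a median log2 ratio of -0.03 and quartiles of -0.26 and 0.22. The share past 2-fold differed by kind of RNA. Among 102 named short RNAs, 41 (40.2%) were at least 2-fold higher and 19 (18.6%) lower. Among 1332 identifiers without a symbol, 114 (8.56%) were higher and 77 (5.78%) lower. Among the 4549 other named genes, 46 (1.01%) were higher and 40 (0.879%) lower. Of the higher ones, 18, 35 and 5 in that order were listed at 0 in KO and passed the filter through KO_dN alone. Of the lower ones, 13, 43 and 4 were listed at 0 in KO_dN and passed through KO alone. The shares of the first 2 kinds thus rest in good part on listed zeros.

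**Figure D2:**
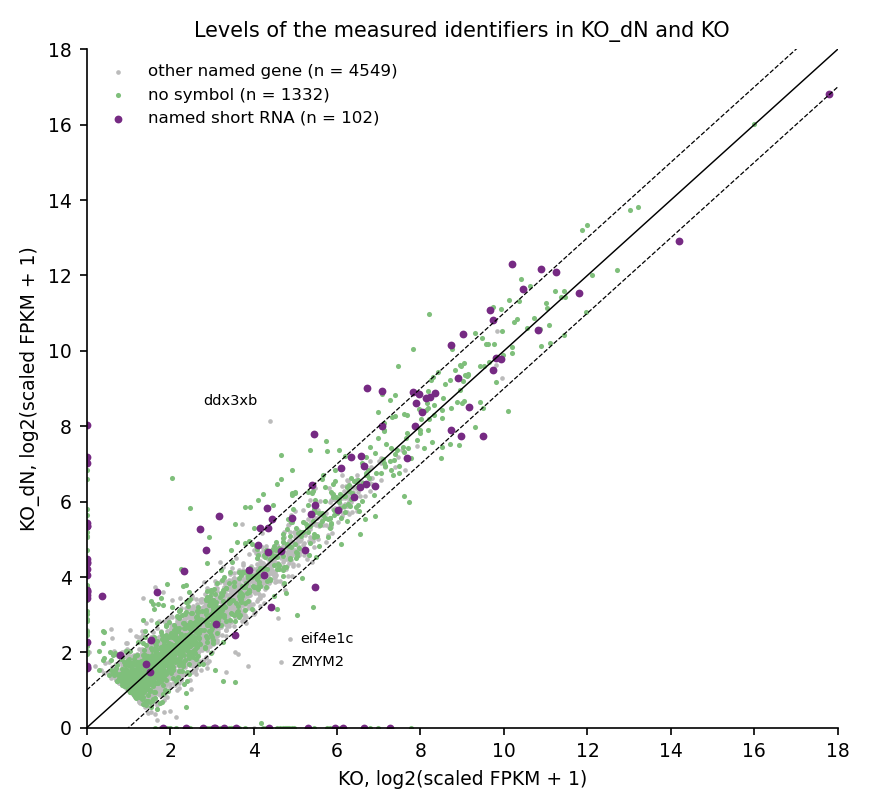
Scaled level in KO_dN (vertical axis) against KO (horizontal axis), both as log2(scaled FPKM + 1), for the 5983 measured identifiers, with 4549 named genes in grey, 1332 identifiers without a symbol in green and 102 named short RNAs in purple. The solid line marks equality and the dashed lines 2-fold. Most grey points lie between the dashed lines, ddx3xb lies far above them, and many purple and green points lie on an axis because 1 group is listed at 0.

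With 1 added to each scaled level, the spread of the ratios among the named genes outside the short RNA classes changed little with level. The added 1 narrows the ratios of low genes most, so the even spread does not show that low genes were measured as well as abundant ones. The distance between the quartiles of the log2 ratio was 0.40 for 1736 genes at mean scaled levels of 1 to 2, 0.45 for 1688 genes at 2 to 5, 0.46 for 903 genes at 5 to 20, 0.45 for 204 genes at 20 to 100 and 0.51 for 18 genes above 100. Their medians were -0.01, -0.05, -0.09, -0.09 and -0.19 in the same order, so the most abundant genes leaned slightly lower in KO_dN. The lowest values may show the worth of 1 read, which could only be inferred, as no read numbers are given. Of 3891 genes above 0 and under 0.1 FPKM in both groups, 611 (15.7%) lay on the 4 commonest ratios, and there the median value was 0.0222 FPKM in KO_dN and 0.0208 FPKM in KO. The number of reads behind a given gene also depends on its length, which the files do not hold. If a read was worth about as much FPKM in both groups, a given scaled level rested on fewer reads in KO_dN. The scaling factor was 0.447 for KO_dN and 0.73 for KO.

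Among the 1125 named genes outside the short RNA classes with a mean scaled level of 5 or more, 12 (1.07%) were at least 2-fold higher in KO_dN, ddx3xb included. OSBP, an oxysterol-binding protein of lipid transport, stood at 12.3 scaled in KO_dN, 10.1 in KO_FL, 2.12 in KO and 16.1 in WT (log2 ratio 2.09). Here KO was the low group, and the other 3 lay between 10.1 and 16.1. TMEM167B stood at 11.2 in KO_dN, 4.51 in KO_FL, 2.17 in KO and 4.48 in WT (1.95). RAB5C, a small GTPase of early endosomes, stood at 20.1 in KO_dN, 6.29 in KO_FL, 8.15 in KO and 4.30 in WT (1.21). ANXA11, a calcium-dependent membrane-binding annexin, stood at 86.8 in KO_dN, 30.2 in KO_FL, 40.8 in KO and 31.7 in WT (1.07). When scaled, KO_dN was above every other group for these 3 genes, and ANXA11 was the most abundant of them. As deposited, WT was higher than KO_dN in all 3, for ANXA11 at 108 FPKM in WT beside 38.8 FPKM in KO_dN.

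The collagen chain gene col1a1a stood at a scaled level of 9.87 in KO_dN, 2.77 in KO_FL, 1.57 in KO and 1.58 in WT (log2 ratio 2.08). BCKDHB, a subunit of the mitochondrial complex that degrades branched-chain amino acids, stood at 28.5 in KO_dN, 17.9 in KO_FL, 12.9 in KO and 2.33 in WT (1.08). For cfap74, a gene of cilia and flagella, the values were 9.43 in KO_dN, 2.12 in KO_FL, 3.12 in KO and 0.243 in WT (1.34). In each of these 3 genes WT was at or near the low end when scaled, and KO_dN was the highest group. As deposited, col1a1a was highest in WT, at 5.39 FPKM beside 4.41 FPKM in KO_dN. BCKDHB was then highest in KO_FL, at 16.2 FPKM beside 12.7 FPKM in KO_dN. The remaining genes of the 12 were si:dkey-256i11.4 (1.75), si:dkeyp-104f11.2 (1.68), wbp2nl (1.19) and rnf25 (1.05), which encodes a ubiquitin ligase. Just short of 2-fold stood GOT1 (0.99), an aspartate aminotransferase, and RPS6 (0.98), a protein of the small ribosomal subunit.

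On the other side, 10 of the 1125 genes (0.889%) were at least 2-fold lower in KO_dN. ZMYM2, a zinc finger protein of transcriptional repressor complexes, stood at 1.04 FPKM in KO_dN, 16 FPKM in KO_FL, 17.8 FPKM in KO and 33.7 FPKM in WT. Scaled, it was at 2.33 in KO_dN and 24.4 in KO, a log2 ratio of -2.93, the lowest of any named gene outside the short RNA classes apart from si:dkey-117n7.3. That gene was listed at 0 in KO_dN, KO_FL and WT and had 11.0 FPKM in KO.

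eif4e1c, of the eIF4E family that binds the cap of mRNAs at the start of translation, stood at 1.84 FPKM in KO_dN, 13.7 FPKM in KO_FL, 20.5 FPKM in KO and 32.4 FPKM in WT. Its scaled levels were 4.13 in KO_dN, 15.2 in KO_FL, 28.1 in KO and 9.54 in WT, so KO_dN was the lowest group and KO the highest (log2 ratio -2.50). EZR, which encodes ezrin, a linker of the cell membrane and actin, stood at 2.90 FPKM in KO_dN, 16.3 FPKM in KO_FL, 16.9 FPKM in KO and 16.8 FPKM in WT (-1.68). As deposited, only KO_dN departed from a near-equal level of EZR in the other 3 groups. When scaled, KO_dN stood at 6.5 and WT lower still, at 4.95.

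RFC1, the large subunit of the clamp loader of DNA replication, stood at a scaled level of 3.05 in KO_dN, 5.38 in KO_FL, 10.7 in KO and 16.3 in WT (log2 ratio -1.54). PRMT1, an arginine methyltransferase, stood at 11.7 in KO_dN, 19.9 in KO_FL, 25.8 in KO and 21.9 in WT (-1.08). PCID2, a component of an mRNA export complex, stood at 5.86 in KO_dN, 13.9 in KO_FL, 13.2 in KO and 16.1 in WT (-1.05). KO_dN was the lowest of the 4 groups for all 3 genes. The remaining genes were sh2d5 (-2.21), si:ch1073-80i24.3 (-1.84) and hsbp1b (-1.67), whose product binds the heat shock factor. MSI2, a Musashi RNA-binding protein, lay at the threshold without passing it (-1.0), with 20.1 in KO_dN, 22.4 in KO_FL, 41.3 in KO and 7.09 in WT.

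**Figure D3:**
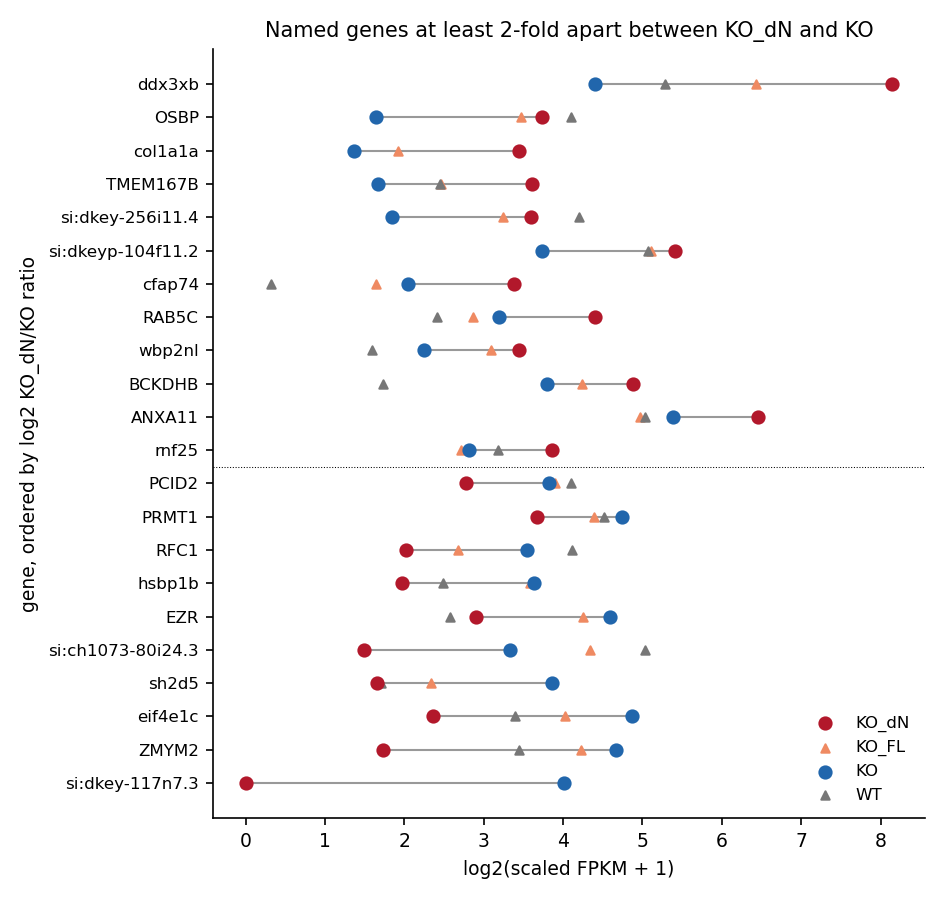
Scaled level (horizontal axis, log2(scaled FPKM + 1)) of the 22 named genes outside the short RNA classes with a mean scaled level of 5 or more and at least 2-fold apart between KO_dN (red circles) and KO (blue circles), ordered by log2 ratio from highest (top) to lowest, with KO_FL and WT as triangles and a dotted line between the 12 higher and the 10 lower genes. For OSBP the triangles lie near KO_dN, and for ZMYM2, eif4e1c and PCID2 all other groups lie to the right of KO_dN.

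Few genes set KO_dN apart from all 3 other groups. Of 1274 named genes outside the short RNA classes with a mean scaled level of 5 or more over the 4 groups, 4 (0.314%) were at least 2-fold above every other group in KO_dN, namely ddx3xb, TMEM167B, RAB5C and ANXA11. The counts here used scaled levels, and as deposited WT was the highest group for all 4 of these genes. A further 6 (0.471%) were at least 2-fold below every other group, namely ZMYM2, eif4e1c, si:ch1073-80i24.3, PCID2, TOMM5, a part of the mitochondrial import pore, and si:dkey-9p20.24. Scaled, si:dkey-9p20.24 was at 0 in KO_dN, 2.02 in KO_FL, 1.22 in KO and 25.7 in WT. It passed this filter through WT alone and was not among the measured identifiers of KO_dN and KO. The same counts were 6 above and 5 below for KO_FL, 1 above and 5 below for KO, and 239 above and 134 below for WT. Among the 3 mutant groups alone, 5 of 1148 genes were above and 7 below in KO_dN, 35 above and 47 below in KO_FL, and 2 above and 5 below in KO. The ratios of KO_dN and of KO_FL to KO share the KO libraries, so for these genes the levels of each group are given rather than an overlap.

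Genes of protein synthesis did not all lie on 1 side. Ribosomal proteins, the protein part of the cytosolic ribosome, leaned higher in KO_dN. Of 42 large-subunit genes, 37 were measured, of which 12 exceeded KO by 1.5-fold or more in KO_dN and 1 was lower by as much. By that fold, 7.99% of all measured identifiers were higher and 7.3% lower, and of the named genes outside the short RNA classes 4.64% were higher and 5.94% lower. Of 33 small-subunit genes, 30 were measured, and 9 were higher and 0 lower. The median log2 ratio was 0.30 for the large and 0.27 for the small subunit, beside -0.03 for all measured identifiers and -0.05 for named genes of scaled levels between 2 and 5, the range that held the list medians. Without the filter on level, the medians still lay 0.25 and 0.26 above that of all genes. The counts of higher and lower members are given with the filter only. They can include low genes that passed it through KO_dN alone, so the counts are no support for the lean by themselves. Over the settings, the ratio of RPL23A lay between 0.53 and 2.21 and that of RPS16 between 0.30 and 1.55.

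RPL10 stood at a scaled level of 5.07 in KO_dN, 3.51 in KO_FL, 1.06 in KO and 5.64 in WT (log2 ratio 1.56), the highest ratio of the large subunit. RPL13A stood at 2.72 FPKM in KO_dN, 6.77 FPKM in KO_FL, 1.68 FPKM in KO and 69.3 FPKM in WT (1.11), and RPL31 at 1.87 FPKM in KO_dN, 2.17 FPKM in KO_FL, 1.07 FPKM in KO and 16.9 FPKM in WT (1.08). In the small subunit, RPS6 was the most abundant measured member, at 15.7 FPKM in KO_dN, 11.0 FPKM in KO_FL, 12.7 FPKM in KO and 12.7 FPKM in WT (0.98). The member that went the other way was RPL37, at 0.591 FPKM in KO_dN, 9.05 FPKM in KO_FL, 2.38 FPKM in KO and 32.4 FPKM in WT (-0.87). The 2 most abundant large-subunit genes, RPL12 and RPL30, had ratios of only 0.22 and 0.16. The sources used here do not say how reads shared between genes were counted.

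The levels behind these ratios were low. The median scaled level of the large-subunit genes was 3.44 in KO_dN, 4.93 in KO_FL, 2.35 in KO and 9.54 in WT, and that of the small-subunit genes was 3.03 in KO_dN, 4.57 in KO_FL, 2.21 in KO and 6.07 in WT. KO_dN thus lay between KO and KO_FL in both subunits. As deposited, the large-subunit median was 1.54 FPKM in KO_dN and 1.72 FPKM in KO, so the list was higher in KO_dN relative to other genes and not as deposited. Relative to the median of all genes, the list lay higher under each of 13 settings, by 0.16 to 0.45 for the large and 0.15 to 0.38 for the small subunit. All settings reuse the same values, and most shift the list and all genes nearly alike. The shared direction over settings is therefore no independent check.

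**Figure D4:**
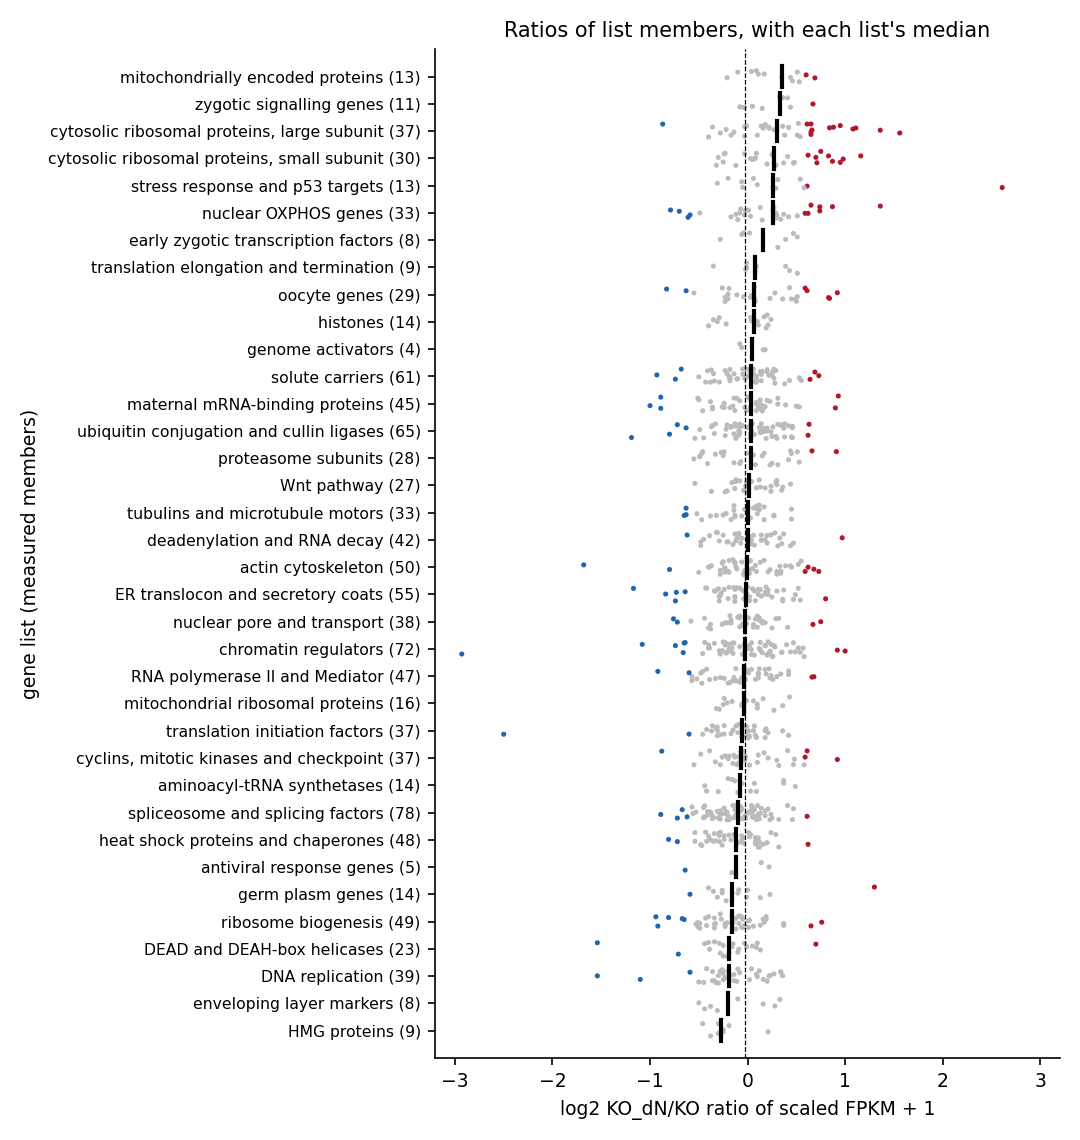
Log2 ratio of KO_dN over KO (horizontal axis) of each measured member (points) of the 36 gene lists with 4 or more measured members, ordered by the list's median (black bars), with the number of measured members in brackets and a dashed line at the median of all measured identifiers (-0.03). Members at least 1.5-fold higher are red and those at least 1.5-fold lower blue. Red points gather in both ribosomal protein lists, while most lists centre near the dashed line.

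Other genes of the translation machinery stayed near the median. Of 51 initiation factor genes, 37 were measured, 0 were at least 1.5-fold higher and 2 were lower, eif4e1c and 1 of the genes that carry the symbol EIF3J (ENSDARG00000053370, -0.60). The helicase eif4a1a, the most abundant initiation factor, stood at 60.8 scaled in KO_dN and 72.2 in KO (-0.24), and EIF1B at 29.9 in KO_dN and 33.4 in KO (-0.15). The 9 measured of 20 elongation and termination genes, the 14 measured of 16 aminoacyl-tRNA synthetases, which charge tRNAs, and the 16 measured of 65 mitochondrial ribosomal proteins held no member 1.5-fold apart, with medians of 0.08, -0.08 and -0.04. At that fold, 7.99% of all measured identifiers were higher and 7.3% lower. The 2 lower of 37 initiation factors are a similar share, and the absence of such members from lists this small says little. Within the elongation list eef1a1l1, which delivers tRNAs to the ribosome, stood at 64.0 scaled in KO_dN, 101 in KO_FL, 47.3 in KO and 43.3 in WT (0.43).

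Ribosome biogenesis genes, which build ribosomes in the nucleolus, had a median on the other side of 0 from the ribosomal proteins. Of 49 measured of 58 genes, 36 had ratios below 0, as did 2502 of all 4549 measured named genes outside the short RNA classes, and 678 of the 1125 of these at a mean scaled level of 5 or more. Of the biogenesis genes, 5 were lower by 1.5-fold or more and 2 higher by that much, with a median of -0.16. The nucleolar protein npm1a stood at 33.5 scaled in KO_dN, 63.4 in KO_FL, 54.0 in KO and 88.7 in WT (-0.67), the lowest of the 4 groups. The other lower members were POLR1D (-0.94), tcof1 (-0.92), nop16 (-0.81) and POLR1H (-0.65), and the higher ones were NIP7 (0.76) and GNL3 (0.65). The 5 lower of 49 stand beside 7.3% of all measured identifiers. POLR1D was a low gene, with a ratio between -1.70 and -0.32 over the settings, and could pass the level filter through KO alone.

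DEAD and DEAH-box helicases other than DDX3, relatives of ddx3xb, had a median of -0.19, with 18 of 23 measured genes (42 on the list) below 0, beside the 2502 of 4549 named genes. DHX57 stood at 0.164 FPKM in KO_dN, 1.20 FPKM in KO_FL, 2.17 FPKM in KO and 7.5 FPKM in WT (-1.54). This gene passed the level filter through KO alone, and its ratio lay between -2.72 and -0.57 over the settings. DDX5, the most abundant, stood at 15.6 FPKM in KO_dN, 74.2 FPKM in KO_FL, 42.2 FPKM in KO and 191 FPKM in WT (-0.71). DHX57 and DDX5 were the only members at least 1.5-fold lower, and ddx39b (0.70) was the only one at least 1.5-fold higher. By that fold, 7.3% of all measured identifiers were lower and 7.99% higher. The median of the biogenesis list minus that of all genes lay between -0.16 and -0.08 over 13 settings, and that of the helicase list between -0.20 and -0.10.

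All 13 protein genes of the mitochondrial genome were measured. The respiratory chain, which makes most of a cell's ATP, draws its subunits from the mitochondrial and the nuclear genome. Ratios above 0 were found for 11 of the 13 mitochondrial genes and for 2788 of all 5983 measured identifiers. The median of the mitochondrial genes was 0.35, and 2 of them exceeded KO by 1.5-fold or more while 0 were lower by as much. By that fold, 7.99% of all measured identifiers were higher and 7.3% lower. MT-ATP6, of the ATP synthase, stood at 65.3 scaled in KO_dN, 58.2 in KO_FL, 40.1 in KO and 75.6 in WT (0.69). MT-ND3, of complex I, stood at 54.3 in KO_dN, 42.4 in KO_FL, 35.5 in KO and 168 in WT (0.60). As deposited, both genes were slightly lower in KO_dN, at 29.2 FPKM in KO_dN and 29.3 FPKM in KO for MT-ATP6 and 24.2 FPKM in KO_dN and 25.9 FPKM in KO for MT-ND3. The other complex I genes ranged from 0.09 (MT-ND6) to 0.53 (MT-ND1). The cytochrome oxidase genes were nearer to 0, with MT-CO1 at -0.21, MT-CO2 at 0.04 and MT-CO3 at -0.10, and MT-CYB of complex III stood at 0.17. mt-atp8, whose reading frame overlaps that of MT-ATP6, stood at 0.11.

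Of 95 nuclear genes of the respiratory chain and ATP synthase, 33 were measured, 7 were at least 1.5-fold higher and 4 lower, with a median of 0.26. By that fold, 7.99% of all measured identifiers were higher and 7.3% lower, so both counts of this list lay above those shares. cox6a1 stood at 2.59 FPKM in KO_dN, 3.09 FPKM in KO_FL, 1.21 FPKM in KO and 4.34 FPKM in WT (1.36). ATP5F1A, a subunit of the ATP synthase, stood at 6.27 FPKM in KO_dN, 15 FPKM in KO_FL, 6.59 FPKM in KO and 199 FPKM in WT (0.59). The lower members were UQCRB (-0.79), ndufa11 (-0.70), atp5mea (-0.61) and UQCRH (-0.59). Without a filter on level the nuclear list lay only 0.02 above the median of all genes, while the mitochondrially encoded list lay 0.35 above it.

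**Figure D5:**
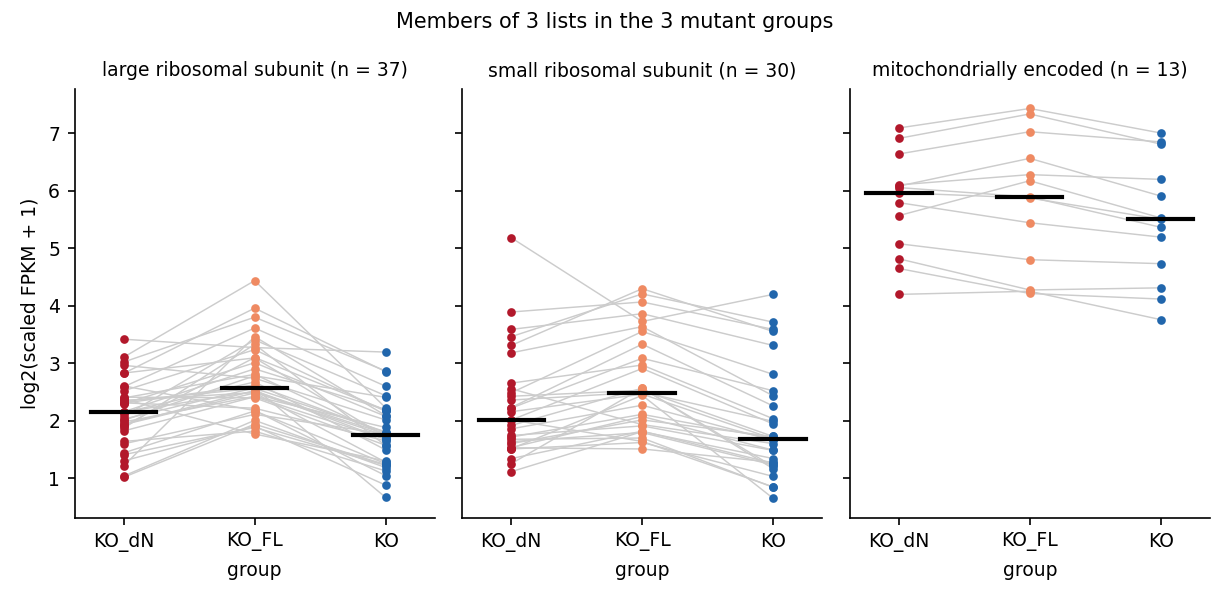
Scaled level (vertical axis, log2(scaled FPKM + 1)) of the measured large-subunit and small-subunit ribosomal proteins and of the mitochondrially encoded proteins in KO_dN, KO_FL and KO, with 1 point for each gene, grey lines joining a gene's values and black bars at the medians. The ribosomal medians are 3.44 and 3.03 scaled FPKM in KO_dN, and 2.35 and 2.21 in KO. The mitochondrial median is 61.3 scaled FPKM in KO_dN and 44.3 in KO.

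DNA replication genes had a median of -0.19, and 26 of 39 measured genes (58 on the list) lay below 0, beside 2502 of the 4549 named genes outside the short RNA classes. RFC1 (-1.54), ORC3 (-1.10) of the origin recognition complex and pole3 (-0.59) were at least 1.5-fold lower and 0 were higher. The ratio of ORC3 lay between -1.93 and -0.39 over the settings, and this low gene could pass the level filter through KO alone. The 3 lower genes of 39 stand beside 7.3% of all measured identifiers, a similar share. GMNN, which encodes the licensing inhibitor geminin and was the most abundant of them, stood at 41.8 FPKM in KO_dN, 124 FPKM in KO_FL, 96.6 FPKM in KO and 526 FPKM in WT (-0.50). HMG proteins, abundant DNA-bending and nucleosome-binding proteins, had a median of -0.27, and 8 of 9 measured genes (12 on the list) lay below 0, but no member reached 1.5-fold. hmga1a stood at 53.9 FPKM in KO_dN and 122 FPKM in KO (-0.46), and HMGB2 at 38.8 FPKM in KO_dN and 82.6 FPKM in KO (-0.38). Minus the median of all genes, the replication median lay between -0.22 and -0.10 and the HMG median between -0.40 and -0.22 over 13 settings.

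Chromatin regulators centred on the median of all genes (-0.03), with 6 of 72 measured genes (143 on the list) at least 1.5-fold lower and 2 higher. By that fold, 7.3% of all measured identifiers were lower, a similar share, and 7.99% were higher. The other counts of this paragraph stand beside the same shares. Beside ZMYM2 and PRMT1, the heterochromatin proteins CBX3 (-0.66) and CBX5 (-0.65), the maintenance DNA methyltransferase DNMT1 (-0.64) and KAT14 (-0.74) were lower, and the histone methyltransferase KMT2C (1.00) and the acetyl-histone reader BRD2 (0.92) were higher. KMT2C was a low gene, with a ratio between 0.35 and 1.78 over the settings, and could pass the level filter through KO_dN alone. CBX3 stood at 26.9 scaled in KO_dN, 49.9 in KO_FL, 43.0 in KO and 120 in WT. The 14 measured of 18 histone genes held no member 1.5-fold apart (median 0.07). Splicing factors had a median of -0.10, with 4 of 78 measured genes lower, namely HNRNPDL (-0.89), PRPF6 (-0.72), prpf38b (-0.67) and LSM7 (-0.62), and 1 higher, SNRPD1 (0.61). Their median scaled level was 11.9 in KO_dN and 13 in KO, and named genes of that level had a median ratio of -0.09. Cyclins, mitotic kinases and checkpoint genes had a median of -0.07, with the mitotic kinases plk1 (0.92) and aurka (0.61) and cyclin CCNB2 (0.59) higher and ANAPC16 (-0.88), of the anaphase-promoting complex, lower among 37 measured.

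Maternal genes showed no shared direction. Of 45 measured mRNA-binding proteins (68 on the list), 3 were at least 1.5-fold lower, MSI2, HNRNPDL (-0.89) and PTBP1 (-0.89), and SYNCRIP (0.90) was among those higher, with a median of 0.03. YBX1, which packages maternal mRNA and was the most abundant, stood at 176 scaled in KO_dN, 243 in KO_FL, 242 in KO and 60 in WT (-0.46). Deadenylation and decay factors had a median of 0.00, and of 42 measured genes only patl2 (0.97) and LSM7 (-0.62) were 1.5-fold apart. PNRC2, a decapping cofactor, stood at 81.0 in KO_dN and 86.5 in KO (-0.09). Of 29 measured oocyte genes, 5 were higher, namely plk1, LIN28B (0.84), RBPMS2 (0.83), aurka and CCNB2, and 2 lower, org (-0.83) and cldnd (-0.63). By that fold, 7.99% of all measured identifiers were higher and 7.3% lower. The lists overlap: plk1, aurka and CCNB2 were also counted among the cyclins and mitotic kinases above. HNRNPDL and LSM7 were likewise counted among the splicing factors.

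The transcription factors that switch on the zygotic genome were close to equal. nanog stood at 91.4 scaled in KO_dN, 81.6 in KO_FL, 95.4 in KO and 34.7 in WT (-0.06), pou5f3 at 37.7 in KO_dN, 42.5 in KO_FL, 39.8 in KO and 31.6 in WT (-0.08), and sox19b at 14.8 in KO_dN, 7.37 in KO_FL, 13 in KO and 6.72 in WT (0.18). Of 29 early zygotic transcription factors, 8 were measured and none was 1.5-fold apart, with ratios from -0.28 (OTX1) to 0.51 (TFAP2A). Among 11 measured zygotic signalling genes (37 on the list), aplnrb, a receptor of gastrulation movements, was at least 1.5-fold higher (0.67), at 5.2 FPKM in KO_dN, 8.06 FPKM in KO_FL, 5.07 FPKM in KO and 16.5 FPKM in WT. The median of these signalling genes was 0.33, and its offset from the median of all genes was 0.36, with a range of 0.05 to 0.44 over 13 settings. The gene chrd, a dorsal BMP inhibitor, stood at 0.44. Most members of both lists lay under the level filter. The counts of these small lists stand beside 7.99% of all measured identifiers at least 1.5-fold higher and 7.3% lower.

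Few markers of single cell types were measured, and few of those were 1.5-fold apart. As 7.99% of all measured identifiers were higher by that fold and 7.3% lower, few such members in lists this small say little. The enveloping layer is the outer cell sheet of the blastula, and 8 of its 35 markers were measured, none 1.5-fold apart, with ratios from -0.50 (epcam) to 0.33 (krt92). grhl3, a transcription factor of that layer, stood at 12.9 scaled in KO_dN, 14.6 in KO_FL, 11.4 in KO and 43.7 in WT (0.16). Of 25 markers of the yolk syncytial layer, 3 were measured, among them ctsla (-0.28) and apoeb (0.31). Germ plasm genes, which mark the future germ cells, had a median of -0.16 over 14 measured of 28, with DDX4 at -0.10, henmt1 higher (1.30) and PIWIL2 lower (-0.59). Of the 14, 11 lay below 0, beside 2502 of the 4549 named genes outside the short RNA classes. henmt1 stood at 3.78 scaled in KO_dN and 0.936 in KO, so it passed the level filter through KO_dN alone. No vitellogenin was measured, the highest value being 0.22 FPKM. Of 67 markers of later tissues only NKX2-1 was measured, at 30.1 FPKM in KO_dN, 64.3 FPKM in KO_FL, 49.8 FPKM in KO and 0.155 FPKM in WT, and it was equal in KO_dN and KO when scaled (-0.01). The medians of the enveloping layer and yolk syncytial layer lists changed sign relative to all genes between settings.

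Of 37 stress response and p53 target genes, 13 were measured, and SAT1 and mdm2 were at least 1.5-fold higher while 0 were lower. Their median was 0.26, and its offset from the median of all genes was 0.29, with a range of 0.03 to 0.34 over 13 settings. SAT1, a polyamine acetyltransferase, stood at 2.27 FPKM in KO_dN, 2.44 FPKM in KO_FL and 42.8 FPKM in WT, and its listed value in KO was 0, so it passed the level filter through KO_dN alone. mdm2, the p53 ubiquitin ligase, stood at 2.33 FPKM in KO_dN and 2.24 FPKM in KO (0.61), and cdkn1a, a p53-induced cell cycle inhibitor, at 1.08 FPKM in KO_dN and 0.988 FPKM in KO (0.54). The pro-apoptotic p53 target pmaip1 stood at 6.83 scaled in KO_dN, 24.3 in KO_FL and 5.54 in KO and was listed at 0 in WT. Of 57 antiviral genes 5 were measured, and isg15 was lower (-0.64). Heat shock proteins and chaperones had a median of -0.12, with HSPA9 (-0.81) and PTGES3 (-0.72) lower and AHSA1 (0.62) higher among 48 measured. Beside the counts of these lists, 7.99% of all measured identifiers were at least 1.5-fold higher and 7.3% lower.

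Short RNAs, which ribosomes do not translate, held the widest ratios among the named RNAs. Spliceosomal snRNAs had a summed level of 355 FPKM in KO_dN and 170 FPKM in KO over the 50 genes of the class. Of 15 that passed the level filter, 10 were at least 2-fold higher in KO_dN and 1 was lower, but 5 of the 15 were listed at 0 in KO and none in KO_dN, so these 5 passed through KO_dN alone. C/D box snoRNAs, which guide RNA methylation, held 11 of 33 measured genes higher and 8 lower, and H/ACA box snoRNAs, which guide pseudouridylation, 4 of 14 higher and 0 lower. Among microRNA genes 5 of 12 were higher and 5 lower, and among 5S rRNA genes 6 of 16 were higher and 5 lower. Of all 102 named short RNAs, 40.2% were at least 2-fold higher and 18.6% lower, beside 3.36% and 2.27% of all measured identifiers. With so few genes in a class, its counts are not read as particular to it. Of the measured genes, those listed at 0 in 1 of the groups were also past the filter through the other group alone. They were 4 C/D box genes in KO_dN and 2 in KO, no H/ACA box gene in KO_dN and 2 in KO, 5 microRNA genes in KO_dN and 4 in KO, and 4 5S rRNA genes in each group. Values barely above 0 are not in these numbers. The C/D box gene SNORD36A, at 1.6e-06 FPKM in KO, also passed through KO_dN alone. The summed level of the C/D box snoRNAs was 16604 FPKM in KO_dN and 25596 FPKM in KO as deposited, and 37181 in KO_dN and 35039 in KO when scaled, so the order of the groups depended on the scaling.

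Single short RNAs switched between 0 and high values. snord31.3 stood at 57.6 FPKM in KO_dN, 244 FPKM in KO_FL and 525 FPKM in WT, and KO listed it at 0. snord47.2 was listed at 0 in KO_dN and stood at 217 FPKM in KO_FL, 112 FPKM in KO and 9294 FPKM in WT. Of the genes with the symbol SNORD18, 1 was listed at 0 in KO alone and another at 0 in KO_dN alone. The precursor gene mir430a-1, of the microRNA family that clears maternal mRNA in zebrafish, stood at 8.73 FPKM in KO_dN, was listed at 0 in KO_FL and KO, and had 24.4 FPKM in WT. Several values of this class lay far below the worth of any read, such as SNORD36A with 117 FPKM in KO_dN against 1.6e-06 FPKM in KO, so a listed 0 can be a failed estimate here, and no fold is given.

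At the level of single genes listed at 0, both directions were alike in number. There were 58 identifiers listed at 0 in KO with a scaled level of 2 or more in KO_dN, of which 35 had no symbol, 18 were named short RNAs and 5 were other named genes. In the other direction there were 60, of which 43 had no symbol, 13 were named short RNAs and 4 were other named genes. Of the 9 named genes outside the short RNA classes, SAT1 was the only one with a name that is not a clone name.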

How the data were processed

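Footprints came from cycloheximide-treated whole embryos whose lysate was digested with RNase I, depleted of ribosomal RNA and size-selected at footprint length, per the labels' protocols. That protocol was followed here, although the molecule label reads polyA RNA. The deposited values were FPKM, 1 per gene and group, which the authors made from both replicates, per the series design text. Depth is not given, and the worth of a read could only be inferred from low values. Cutadapt 1.13, Trimmomatic 0.36, Bowtie, TopHat2 2.1.1, Cufflinks 2.2.1 and the build Zv9 are named, in no order, by the submitters' processing notes. Their settings, the use of strand, the handling of shared reads and whether replicates were separate clutches were not given in the sources used here.

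Of 33737 identifiers, 101 listed on more than 1 line in a file and 3 absent from a file were left out. Symbols from a gene name table matched 21863 of 33633 identifiers and are printed as given there, so many carry capitals. Values were scaled by median of ratios, and log2 ratios used a pseudocount of 1 scaled FPKM, which understates the change of low genes. A fold of 2 was used for genes and 1.5 for lists. With 1 value a group no test was run. The calculation was checked on simulated data. The planted changes there were larger than the folds used here and lay in more abundant genes, so the check does not cover small folds at low levels. Python 3.11.15, numpy 2.4.6, pandas 2.3.3 and matplotlib 3.10.9 were used.

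The members, the 40 gene lists and their exclusions were chosen with earlier results of these data known. Named genes were ddx3xb and ddx3xa, the 15 highest and 15 lowest ratios among symbols at a mean scaled level of 5 or more, for each list the 2 most abundant members and the extremes of ratio at a level of 2 or more, and up to 6 genes of each kind listed at 0. As that rule chose mostly short RNAs, the same 15 and 15 outside the short RNA classes were added after seeing the data. Other genes named as the members of a small count were also chosen after their values were seen. A planned description of protein length and base composition was not run, and no sequence is printed. Some genes are not reported here.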

Additional observations from a re-analysis of the deposited data

How the results depend on the processing

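The counts of genes past 2-fold in KO_dN, 201 higher and 136 lower, became 310 and 264 with a pseudocount of 0.1, 114 and 81 with 5 as the pseudocount, 124 and 71 under a filter of at least 5 on the mean scaled level, and 83 and 448 with values as deposited. Centred on their median, the deposited values gave 143 and 107. Restricted, after seeing the data, to named genes outside the short RNA classes they were 46 and 40, and 12 and 10 at a mean of at least 5. Dividing each file by its sum moved the split to 264 and 105 (71.5% of the genes past 2-fold higher, beside 59.6%) and put the median of all genes at 0.13, and leaving the 50 highest genes out of the sum gave 179 and 166 (51.9%). The cause of these shifts was not tested. Of 257 genes followed over 12 alternatives, no gene at least 2-fold apart changed sign. This says little, as a changed pseudocount cannot turn a sign and a filter leaves a gene's ratio as it was. The other settings mostly shifted all genes together, and the largest shift put the median at -0.54, less than 2-fold. A list's offset from the median of all genes moves little under such a shift, so the ranges of offsets over settings say little either. With values as deposited 6 genes at least 1.5-fold higher took the other sign, at -0.06 for ATP5F1A, -0.11 for CCNB2, -0.01 for MT-ATP6, -0.09 for MT-ND3 and PFN2 and -0.0 for SNRPD1, under the shift of all genes. Apart from values as deposited, 30 genes took both signs, all with a ratio of 0.21 or less in size. The offset of the 3 measured yolk syncytial layer markers from all genes, -0.25, became 0.06 at a mean of at least 5 and 0.20 when the filter used the deposited mean of the 4 groups. No paired analysis was possible because only the mean of each group's 2 replicates is used here, and for the same reason no replicate could be left out in turn. The number of reads behind each gene is unknown, which limits every ratio here.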

Other observations

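Several gene groups of cell structure and protein turnover centred near the median of all measured identifiers. Of all measured identifiers, 7.99% were at least 1.5-fold higher and 7.3% lower, and the members named below stand beside those shares. Solute carriers, the membrane transporters of the cell, had a median log2 ratio of 0.03 over 61 measured genes, with SLC30A1 (0.73), a zinc exporter, SLC25A36 (0.69) and SLC25A1 (0.64), the mitochondrial citrate carrier, at least 1.5-fold higher in KO_dN and SLC7A4 (-0.93) and SLC22A2 (-0.74) among those lower. ER translocon and secretory coat genes had a median of -0.02 over 55 measured genes, with SPCS3 (-1.17), srprb (-0.84), SEC62 (-0.74), PDIA4 (-0.73) and SEC11A (-0.64) lower and SEC61G (0.80) higher. SPCS3 and SEC11A belong to the signal peptidase, srprb to the receptor of the signal recognition particle, and SEC62 and SEC61G to the translocon. The 5 lower of 55 are a share similar to that of all measured identifiers. Ubiquitin-conjugating enzymes and cullin ligases held UBE2D1 (-1.19), UBA3 (-0.80), SKP1 (-0.72) and ube2g1b (-0.63) lower and fbxo5 (0.63) and FBXW11 (0.62) higher among 65 measured genes.

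RNA polymerase II and Mediator genes had a median of -0.04 over 47 measured genes, with CCNT2 (0.68) and SUPT20H (0.66) higher and POLR2J3 (-0.92) and MED10 (-0.60) lower. The shares of all measured identifiers, 7.99% higher and 7.3% lower, apply to the counts of this paragraph too. Nuclear pore and transport genes had a median of -0.03 over 38 measured genes, with NXT2 (0.75) and NUP58 (0.67) higher and XPO1 (-0.76), the main exportin, and NUP43 (-0.72) lower. Tubulins and microtubule motors had a median of 0.00 over 33 measured genes, with DCTN3 (-0.65), kif20ba (-0.63) and MARK2 (-0.63) lower and none higher. Actin cytoskeleton genes held flna (0.73), MYL12A (0.68), actr3 (0.62) and PFN2 (0.59) higher and EZR (-1.68) and fmn2a (-0.80) lower. Among the 50 measured actin cytoskeleton genes, the formin fmn2a, an actin nucleator, stood at 50.3 FPKM in KO_dN, 77.4 FPKM in KO_FL, 144 FPKM in KO and 9.04 FPKM in WT (-0.80). The microtubule-associated kinase MARK2 stood at 10.2 FPKM in KO_dN, 15.9 FPKM in KO_FL, 26.2 FPKM in KO and 5.75 FPKM in WT (-0.63). For both genes KO was the highest and WT the lowest group as deposited, with KO_dN between them. The proteasome had 28 measured subunits, of which PSMC4 (0.91) and PSMD6 (0.66) were higher and 0 lower, and the 27 measured Wnt pathway genes held no member 1.5-fold apart.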
